A study of Vitis vinifera with 16 samples.

Results

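Leaves of grapevine (Vitis vinifera cv. Garnacha Blanca, grafted on 110R) sprayed with the plant extract Akivi (Aki) were compared directly with leaves sprayed with lyophilized Bacillus UdG (BL), gene by gene. The comparison used 8 of the 16 libraries of the series, 4 of Aki and 4 of BL, chosen by their treatment labels. Akivi is a formulated product made from the plant Dittrichia viscosa, and its dose was 0.521 g/L. Bacillus UdG is a strain of B. velezensis, which for BL was fermented, mixed with skimmed milk and freeze-dried, and then suspended in water. Fresh cells of the same strain (BF) and a non-treated control (NTC) made up the other 8 libraries, which did not enter the contrast and are given as levels only. All plants were greenhouse-grown, and leaves were taken 24 h after spraying, with 2 leaves from each of 5 plants pooled in each biological replicate. The contrast is of 2 finished products in 1 cultivar. Each treatment formed a block of its own, so the effects of the bacterium, of the milk and of the place of the block cannot be told apart in it. Neither the table nor the sources name photosynthesis genes by identifier, so the leaf label was not checked against markers.

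Plant extracts and bacteria used for biocontrol can act on the plant's own defences as well as on the pathogen. In plant defence salicylic acid, jasmonic acid and ethylene act as the main defence hormones. Salicylic acid works through the regulator NPR1 (also called NIM1) and raises pathogenesis-related (PR) proteins, while abscisic acid, auxin and gibberellin link defence with drought and growth. Defence and growth draw on the same resources, which is why genes of the cell cycle are read beside them.

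Markers of Akivi (A1 to A12) and of Bacillus (B1 to B15) were chosen for RT-qPCR as well. Their designed primers show which transcripts the marker names stand for. They are printed for A2 and B1, which had the largest fitted log2 fold changes of the Akivi and Bacillus markers. They are also printed for A8, which acts on salicylic acid, and for B5, the Bacillus marker that the study picked for a fall. Capitals mark the 5 bases at the 3′ end, from which the polymerase extends.
A2 forward: gcgagcttcaagcgcAATTA
A2 reverse: aggtttgcttgctggCATTG
A8 forward: gggacaccagttacgCAGAA
A8 reverse: ggtccagaagaacagCCCAA
B1 forward: gctgcaagaaatgtggAATGC
B1 reverse: tcgactcttgtgactttgtTTTCC
B5 forward: aagttcagggcttggTGAGG
B5 reverse: gggtctcacttctcaCACGG
A2 is VIT_06s0004g03350, described as a lateral organ boundaries protein. A8 is VIT_04s0023g02240, a salicylic acid carboxyl methyltransferase. B1 is VIT_16s0022g00860, an invertase/pectin methylesterase inhibitor, and B5 is VIT_00s1490g00010, an adenylylsulfate reductase. The RT-qPCR values themselves were not analysed here.

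The deposited values are FPKM, which divide the fragments of a gene by its length and by library depth. Fragments assigned to genes ranged from 11078475 to 16330581 in the Aki libraries and from 12282557 to 16991911 in the BL libraries. On a gene of 1 kb, 3 fragments corresponded to between 0.177 and 0.271 FPKM, counting error alone considered. Tests with limma covered the 19660 genes that reached 0.5 FPKM in 3 or more of the 8 libraries, and were run on log2(FPKM + 0.1). A gene was called differentially expressed (DEG) where its adjusted p (Benjamini-Hochberg) was no more than 0.05 and its log2 fold change (Aki minus BL) was at least 1.4 in either direction. The added 0.1 FPKM understates the change of genes with low values. Within a group, the median SD of a gene was 0.20 on the log2 scale in Aki and 0.19 in BL. The replicates are separate sets of plants, all from 1 greenhouse experiment.

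Aki and BL leaves parted along the first axis of a principal component analysis (PCA), which held 41.2% of the variance. The Aki libraries had PC1 scores of -42.0, -52.3, -30.6 and -35.6, and the BL libraries of 34.6, 38.4, 46.0 and 41.4, without overlap. PC2 held 14.9% and spread the Aki libraries, with Aki_R1 at 45.5 and Aki_R3 at -43.5, while all BL libraries lay between -17.8 and 12.5. Aki_R1 and BL_R1 are the libraries of these groups that the study left out after a PCA of its own, and PC1 also parted the remaining 6 libraries.

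**Figure D1:**
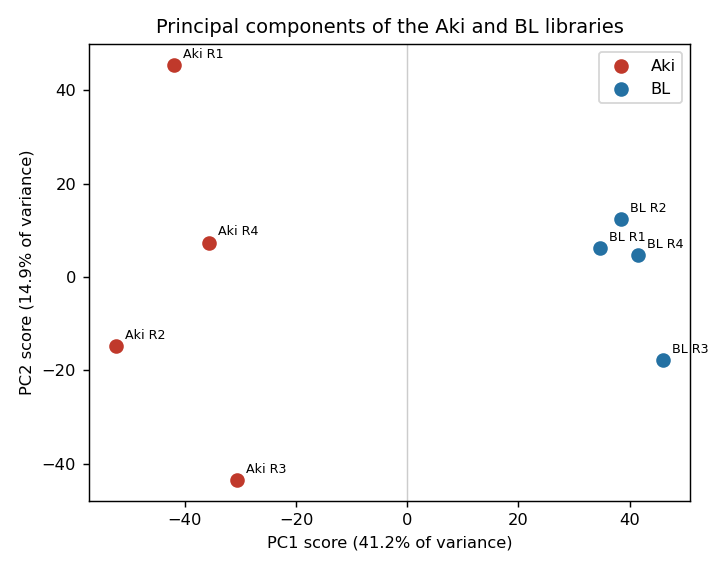
Scores of the 4 Aki (red) and 4 BL (blue) libraries on PC1 (41.2% of the variance, horizontal) and PC2 (14.9%, vertical), from centred log2(FPKM + 0.1) of 19660 genes. All Aki libraries lie left of all BL libraries, and Aki_R1 and Aki_R3 lie farthest apart on PC2.

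In the direct comparison 301 genes were higher and 199 lower in Aki than in BL, which is 1.53% and 1.01% of the genes tested and 2.54% together. Without Aki_R1 and BL_R1 the numbers were 263 and 177. By the adjusted p alone, 1818 genes (9.25%) were higher and 2096 (10.7%) lower in Aki, 19.9% in all, so most differences were small. The median log2 fold change of all tested genes was -0.04. Among the DEGs, 121 of the higher and 65 of the lower genes differed by a log2 fold change of 2 or more, and 41 and 7 by 3 or more. The Aki libraries all lay above the BL libraries for 286 of the 301 higher DEGs, and all below them for 181 of the 199 lower DEGs. Over all tested genes, whether DEGs or not, the groups did not overlap for 24.6%.

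The DEGs covered the whole range of levels but were most frequent among weakly expressed genes. Of the genes averaging under 1 FPKM, 2.68% were higher and 2.52% lower in Aki, against 1.61% and 0.51% of the genes at 100 FPKM or more. The higher DEGs took 1.47 to 2.01% of all fragments in the Aki libraries and 0.33 to 0.38% in the BL libraries. The lower DEGs took 0.22 to 0.30% in Aki and 0.65 to 0.88% in BL. In 24 of the higher DEGs no BL library held more than 3 fragments, and in 20 of the lower DEGs no Aki library did, so the fitted folds of these genes depend on the added 0.1 FPKM.

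**Figure D2:**
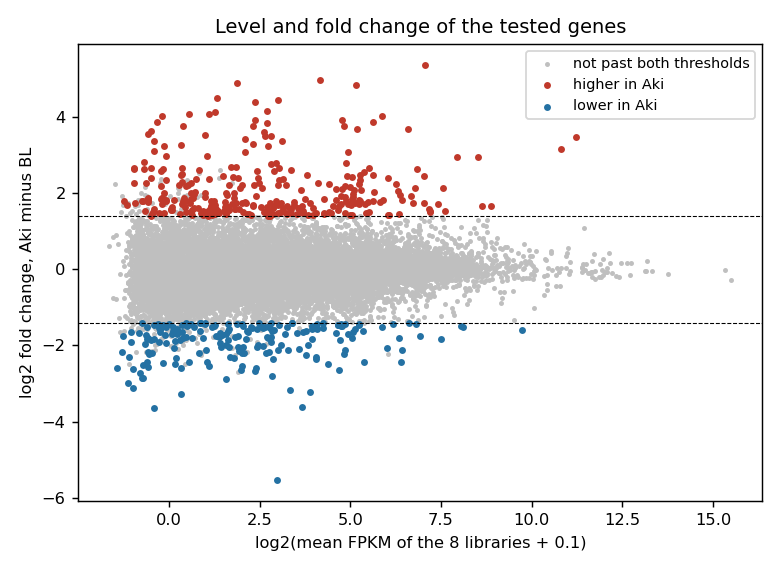
Log2 fold change of each tested gene (Aki minus BL, vertical) against log2 of its mean FPKM over the 8 libraries plus 0.1 (horizontal). Red points are the 301 genes higher in Aki, blue points the 199 genes lower in Aki, grey points those not past both thresholds, and dashed lines mark log2 fold changes of 1.4 and -1.4.

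The libraries outside the contrast show where the DEGs stood in other leaves. Over the 301 genes higher in Aki, the median log2(FPKM + 0.1) was between 2.90 and 3.21 in the Aki libraries, 0.81 and 0.92 in BL, 0.86 and 1.21 in BF, and 1.96 and 2.35 in NTC. NTC thus lay between both treatments, and its mean on the log2 scale was nearer to Aki for 161 of these genes and nearer to BL for 140. For the 199 genes lower in Aki the median was between 0.25 and 0.73 in Aki, 2.27 and 2.67 in BL, 1.67 and 2.14 in BF, and 0.39 and 0.83 in NTC. Here NTC was nearer to Aki for 179 of the 199 genes. Over all tested genes NTC was nearer to Aki for 65.3%. BF was nearer to BL for 287 of the higher and 139 of the lower DEGs. It was nearer to Aki for 4.65% of the higher and 30.2% of the lower DEGs, against 42.5% of all tested genes. These are descriptions of genes chosen by the Aki and BL values, with no test.

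Of the 12 Akivi markers 11 were higher in Aki than in BL and 1 did not pass the fold threshold, where 1.53% of all tested genes were higher. Their log2 fold changes ran from 1.29 to 4.14 with a median of 3.36, and the Aki libraries lay above the BL libraries for each of the 12. The study chose the markers on these same samples, so the count is not independent evidence of a direction. The NTC mean was nearer to BL than to Aki for all 12.

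With 0.1 FPKM added, the largest fitted fold change among them was that of A2, from a family that patterns the borders of plant organs. A2 had 12.02, 12.3, 10.5 and 14.5 FPKM in Aki, against 0.574, 0.397, 0.519 and 1.04 FPKM in BL, and the means differed 19.5-fold (log2 fold change 4.14 ± 0.25 SE, adjusted p = 7.6e-06, limma). Every Aki library lay far above every BL library, and NTC held 0.746 to 2.48 FPKM. A7 (VIT_00s0372g00040), a cineole synthase that makes a volatile monoterpene in the chloroplast, had 8.38, 13.8, 7.75 and 8.33 FPKM in Aki, against 0.734, 0.374, 0.524 and 0.526 FPKM in BL (3.91 ± 0.25 SE, adjusted p = 1.0e-05).

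Markers of hormone metabolism and signalling were among the 11. A8 methylates salicylic acid to its volatile ester, and had 60.0, 124, 95.3 and 91.7 FPKM in Aki, against 6.52, 4.44, 5.56 and 8.61 FPKM in BL (3.86 ± 0.24 SE, adjusted p = 2.1e-05). The lowest Aki library was thus several times above the highest BL library, with NTC between them at 13.3 to 30.3 FPKM. A4 (VIT_17s0000g00200), an ethylene-responsive transcription factor, had 7.90, 9.26, 7.54 and 5.88 FPKM in Aki, against 0.435, 0.267, 0.852 and 1.25 FPKM in BL (3.43 ± 0.37 SE, adjusted p = 0.00022). A3 (VIT_05s0077g00520), a gibberellin oxidase that inactivates the growth hormone, had 3.87, 4.94, 2.58 and 2.75 FPKM in Aki, against 0.545, 0.412, 0.404 and 0.135 FPKM in BL (2.98 ± 0.36 SE, adjusted p = 0.00036).

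Both peroxidase markers, of the class of enzymes that cross-link cell walls with hydrogen peroxide, were higher in Aki. A6 (VIT_12s0055g01010) had 57.5 to 76.4 FPKM in Aki and 3.35 to 7.33 FPKM in BL (3.69 ± 0.21 SE, adjusted p = 7.6e-06), and A5 (VIT_08s0058g00970) 7.38 to 12.1 FPKM and 0.560 to 1.20 FPKM (3.28 ± 0.26 SE). The receptor kinase A1 (VIT_12s0059g02600) rested on few fragments, with 46, 31, 72 and 35 in the Aki libraries, against 6, 1, 0 and 1 in the BL libraries. Scaled to depth this is a 21.8-fold ratio with an exact 95% interval of 10.8 to 51.2 for counting error, and the fit gave 3.76 ± 0.44 SE (adjusted p = 0.00031). The fitted value of A1 depends on the pseudocount, and with 0.01 FPKM added it was 5.24 and exceeded that of A2. At higher levels, A12 (VIT_07s0005g06090, a pore-forming toxin-like protein), A9 (VIT_12s0034g01140, a plastocyanin domain protein) and A10 (VIT_19s0090g00660, a GDSL lipase) had log2 fold changes of 2.63, 2.39 and 2.35, and the groups did not overlap.

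A11 (VIT_03s0088g00810), the PR-1 protein used widely as a readout of salicylic acid signalling, was the marker that stayed under the fold threshold. It had 394, 629, 668 and 378 FPKM in Aki, against 245, 151, 169 and 276 FPKM in BL (1.29 ± 0.25 SE, adjusted p = 0.0071). The groups were apart, but the lowest Aki and highest BL libraries were close. The fold change exceeded the threshold without Aki_R1 (1.41), without Aki_R4 (1.43), without BL_R4 (1.44) and without both Aki_R1 and BL_R1 (1.496).

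Of the 15 Bacillus markers 13 were lower in Aki than in BL, 1 was higher and 1 passed neither threshold, where 1.01% of all tested genes were lower. Their median log2 fold change was -2.07. These markers too were chosen on the same samples, by the study's comparison of Bacillus with NTC, and the NTC mean was nearer to Aki for all 15, so their counts are no independent evidence.

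B1, an inhibitor of cell wall and sugar-cleaving enzymes, had the largest fitted fall of all tested genes with 0.1 FPKM added. It had 0.084, 0.106, 1.01 and 0.148 FPKM in Aki, against 18.5, 8.71, 18.9 and 15.2 FPKM in BL (-5.53 ± 0.54 SE, adjusted p = 0.00017). The Aki value was carried mainly by Aki_R3, with 14 of the 18 fragments, against 721 fragments in BL. The ratio of BL to Aki was 42.3-fold, with an exact 95% interval of 26.6 to 71.7 for counting error. B6 (VIT_13s0064g01370), a polygalacturonase inhibiting protein of the kind that blocks fungal wall-degrading enzymes, had 2, 2, 4 and 0 fragments in Aki, against 53, 14, 31 and 24 in BL. Its ratio of BL to Aki was 16.1-fold with an interval of 7.91 to 38.1 (-3.28 ± 0.46 SE, adjusted p = 0.0010).

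Most other lower markers were expressed at more than 0.5 FPKM in every Aki library. B2 (VIT_06s0004g07210), a constans-like protein with a CCT motif, had 0.778, 2.94, 2.04 and 2.51 FPKM in Aki, against 13.1, 15.1, 21.5 and 22.1 FPKM in BL (-3.16 ± 0.36 SE, adjusted p = 0.00044). B7 (VIT_09s0002g04280), a dynein light chain, had 9.29 to 19.0 FPKM in Aki and 60.8 to 92.0 FPKM in BL (-2.43 ± 0.21 SE, adjusted p = 9.0e-05). B8 (VIT_03s0091g00310), an enzyme that ties the auxin indole-3-acetic acid to amino acids, had 0.171 to 1.395 FPKM in Aki and 2.20 to 3.42 FPKM in BL (-2.20 ± 0.45 SE, adjusted p = 0.0075). B8 rested on 12, 4, 48 and 18 fragments in Aki, against 82, 57, 78 and 90 in BL, and with 1 FPKM added it was under the fold threshold (-1.23). The groups lay apart for B2, B7 and B8. B12 (VIT_10s0116g00530), the thiazole enzyme of thiamine synthesis, was the most abundant marker, with 362, 366, 457 and 518 FPKM in Aki, against 1200, 1211, 1218 and 1440 FPKM in BL (-1.59 ± 0.12 SE, adjusted p = 3.0e-05). It had the largest fall in mean FPKM of all lower DEGs, at 425.5 in Aki against 1267 in BL.

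B3 (VIT_16s0100g00740) was weak in Aki as well, with 7, 6, 11 and 3 fragments, against 49, 32, 76 and 54 in BL (-2.89 ± 0.37 SE, adjusted p = 0.00054). Falls were also found for B10 (VIT_01s0026g02740, -2.24), B15 (VIT_13s0067g02130, a dehydration-induced protein, -2.07), B4 (VIT_14s0068g01160, a cytokinin-repressed protein, -2.03), B9 (VIT_01s0011g01980, a fasciclin arabinogalactan-protein, -1.79) and B13 (VIT_00s0480g00060, a polyphenol oxidase, -1.56). The groups did not overlap for B3 or for any of these. B14 (VIT_07s0031g02610), a NAC transcription factor, was close to both thresholds, with 9.98, 12.9, 33.9 and 31.7 FPKM in Aki, against 42.0, 37.6, 59.9 and 76.5 FPKM in BL (-1.42 ± 0.41 SE, adjusted p = 0.040). It lost its call without Aki_R1 (-1.11), Aki_R2 (-1.23), BL_R1 (adjusted p = 0.055), BL_R3 (-1.35) or BL_R4 (-1.24), and without both Aki_R1 and BL_R1 (-1.21). B11 (VIT_08s0058g00430), an iron-storing ferritin, had 30.3, 32.9, 12.4 and 41.5 FPKM in Aki, against 27.2, 50.5, 52.1 and 43.6 FPKM in BL (-0.65 ± 0.36 SE, adjusted p = 0.24). The groups overlapped, and the other 2 ferritin genes did not pass the thresholds either.

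B5 was picked by the study for a fall after Bacillus, whereas the other Bacillus markers were picked for a rise. A higher level in Aki than in BL is thus the direction of that choice, and no independent evidence. Adenylylsulfate reductase catalyses the committed step of sulfate assimilation in plants. B5 had 50.5, 58.9, 54.7 and 41.2 FPKM in Aki, against 6.95, 8.56, 8.40 and 5.78 FPKM in BL, and the means differed 6.91-fold (2.78 ± 0.15 SE, adjusted p = 5.4e-06). Aki leaves were in the range of NTC, at 36.7 to 67.8 FPKM, while BL leaves and BF leaves, at 3.97 to 4.49 FPKM, were far below it.

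**Figure D3:**
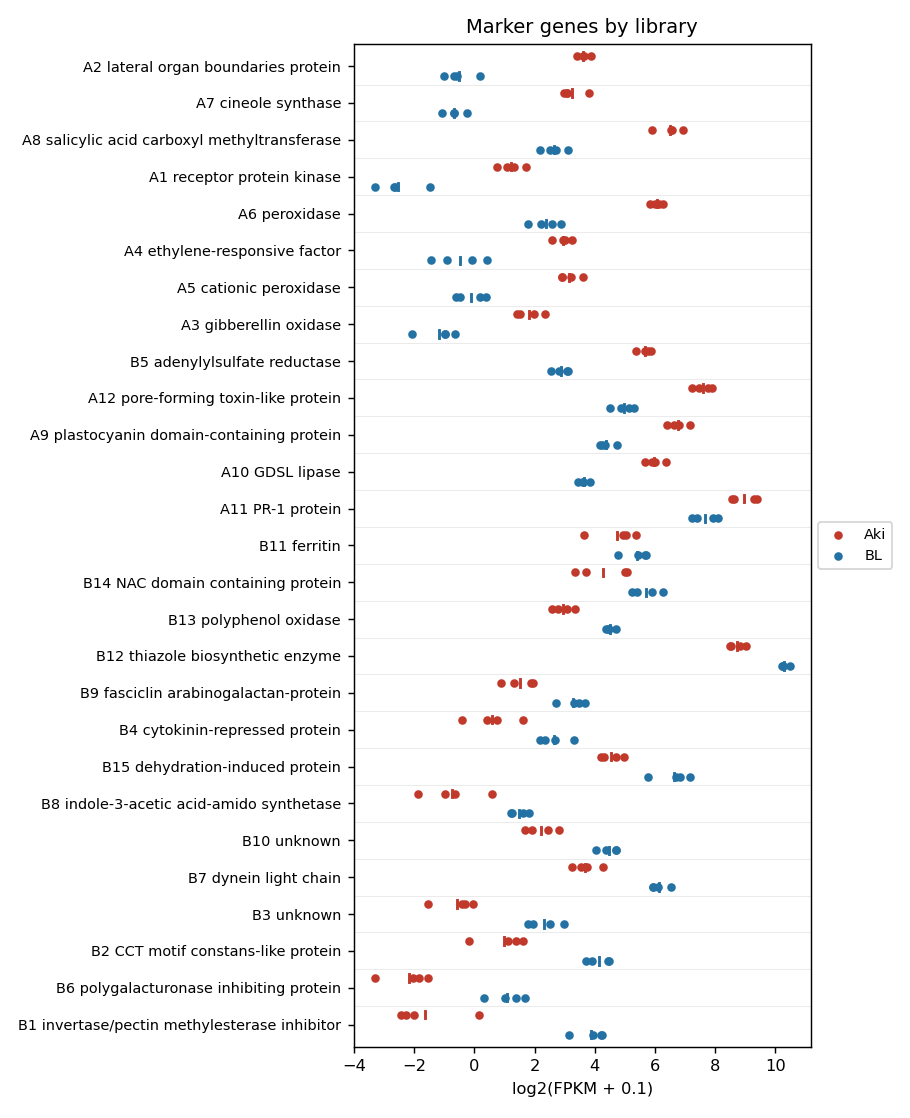
Log2(FPKM + 0.1) of the 27 marker genes in each of the 4 Aki (red) and 4 BL (blue) libraries, with the group mean as a short bar and the genes ordered by log2 fold change. B5 stands among the Akivi markers, A11 shows a narrow gap, and the groups overlap for B11 only.

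The study also describes by identifier 35 genes grouped here as defence and stress genes, with the marker B11 among them. Another 41 are grouped here as growth and cell cycle genes, although the study places them under stress-related responses and some, such as DIR1, under systemic acquired resistance. The study picked the first list for a rise and the second for a fall against NTC, in 1 or more treatments of these samples. Many were picked on BL itself and others on Aki, so the counts below are no independent evidence of a direction. Of the 33 defence and stress genes tested 5 were higher and 9 lower in Aki than in BL, with a median log2 fold change of -0.85, where 1.53% and 1.01% of all tested genes were higher and lower. All 5 higher genes had been picked by the study for a rise in Aki against NTC. Of the 35 growth and cell cycle genes tested 12 were higher and 0 lower, with a median of 1.12. By the adjusted p alone 20 of the growth genes were higher and 0 lower in Aki, and 6 of the defence and stress genes higher and 13 lower, against 9.25% higher and 10.7% lower over all tested genes.

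Both genes described as NIM1-interacting (NIMIN) were higher in Aki. They had been picked by the study for a rise in Aki against NTC, so this direction is no independent evidence. NIMIN proteins bind NPR1 and hold back the expression of PR genes in Arabidopsis. VIT_07s0005g02070, described as NIM1-interacting, had 32.2, 71.0, 57.5 and 62.6 FPKM in Aki, against 11.2, 10.4, 7.14 and 11.4 FPKM in BL (2.43 ± 0.24 SE, adjusted p = 0.00022). VIT_01s0011g03430, the other NIM1-interacting gene, had 36.7, 73.2, 62.1 and 78.3 FPKM in Aki, against 10.8, 14.9, 10.0 and 15.6 FPKM in BL (2.25 ± 0.24 SE, adjusted p = 0.00032). In both genes Aki_R1 was the lowest Aki library and still above each BL library. NTC had 15 to 28.6 FPKM and 16.7 to 37.6 FPKM. The gene with the next identifier, VIT_01s0011g03440, is described as a DNA mismatch repair protein and had 247 to 399 FPKM in Aki and 50.03 to 79.5 FPKM in BL (2.14 ± 0.18 SE, adjusted p = 6.1e-05). It is listed by the study under regulation of systemic acquired resistance and was picked for a fall in BL against NTC. Its direction is thus no independent evidence either.

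The PR-10 genes, which code for small intracellular defence proteins, did not move together. However, VIT_05s0077g01600 was picked by the study for a rise in Aki and VIT_05s0077g01570 for a rise in BL, each against NTC. Their opposite directions here are thus no independent evidence. VIT_05s0077g01600 had 2.81, 5.99, 8.33 and 3.20 FPKM in Aki, against 2.00, 0.692, 1.63 and 1.36 FPKM in BL (1.72 ± 0.39 SE, adjusted p = 0.014). VIT_05s0077g01570 had 3.41, 5.53, 12.8 and 4.39 FPKM in Aki, against 11.4, 9.62, 11.8 and 12.7 FPKM in BL (-0.97 ± 0.34 SE, adjusted p = 0.075), and its groups overlapped through Aki_R3. Both lie on 1 scaffold of chromosome 5, and uniquely mapping fragments leave close copies uncertain.

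Of 2 genes for phytosulfokine, a secreted peptide hormone, VIT_18s0001g08760 had 57.3, 141.2, 112 and 85.5 FPKM in Aki, against 38.6, 44.3, 25.5 and 33.0 FPKM in BL (1.44 ± 0.27 SE, adjusted p = 0.0067). Its call was lost without Aki_R2 (1.24), Aki_R3 (1.35) or BL_R3 (1.29). VIT_08s0007g03870, the other one, gave 0.57 ± 0.27 SE (adjusted p = 0.17). A C2H2 zinc finger gene, VIT_13s0019g00480, had 3.80 to 6.73 FPKM in Aki and 0.721 to 2.28 FPKM in BL (1.88 ± 0.32 SE, adjusted p = 0.0027). NSL1 and DIR1 genes passed the adjusted p but not the fold threshold, with 1.19 for VIT_01s0011g05950, named necrotic spotted lesions, and 1.12 for VIT_00s0333g00050, a lipid transfer protein named after DIR1 of systemic acquired resistance in Arabidopsis. The DIR1 gene was highly expressed, at 248 to 424 FPKM in Aki and 113 to 204 FPKM in BL, with NTC at 389 to 533 FPKM. In the study VIT_18s0001g08760, the C2H2 gene and the NSL1 gene were picked for a rise in Aki against NTC. There the DIR1 gene was picked for a fall in BL, so none of these directions is independent evidence.

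Several regulators of stress responses did not pass the thresholds. WRKY33 (VIT_08s0058g00690), a regulator of phytoalexin genes in Arabidopsis, had 2.22, 2.23, 5.05 and 3.50 FPKM in Aki, against 4.61, 4.62, 8.14 and 11.9 FPKM in BL (-1.11 ± 0.35 SE, adjusted p = 0.052). The abscisic acid receptor VIT_13s0067g01940 passed the adjusted p alone, with 3.37 to 6.17 FPKM in Aki and 7.72 to 12.1 FPKM in BL (-1.08 ± 0.22 SE, adjusted p = 0.0069). MYB14 (VIT_05s0049g01020), which controls stilbene synthesis in grapevine, gave -0.88 ± 0.36 SE (adjusted p = 0.11). JAZ8 (VIT_10s0003g03790), a repressor of jasmonate responses, gave 0.67 ± 0.70 SE (adjusted p = 0.545), with values under 2.6 FPKM in all 8 libraries. The standard errors of these genes leave differences of the size of the threshold possible for WRKY33, the abscisic acid receptor, MYB14 and JAZ8.

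Genes of trehalose metabolism were lower in Aki, with 3 of 3 past the thresholds, where 1.01% of all tested genes were lower. The study picked all 3 for a rise in BL against NTC, so the count is no independent evidence of a direction. Trehalose-6-phosphate, the product of trehalose phosphate synthase (TPS), signals sugar supply, and trehalose-phosphatase (TPP) turns it into trehalose. TPS VIT_17s0000g08010 had 0.791, 0.994, 1.42 and 0.589 FPKM in Aki, against 5.23, 2.62, 8.21 and 4.87 FPKM in BL (-2.30 ± 0.35 SE, adjusted p = 0.0015). TPS VIT_01s0026g00280 had 9.82, 7.67, 10.9 and 6.21 FPKM in Aki, against 28.3, 19.7, 29.9 and 22.5 FPKM in BL (-1.54 ± 0.19 SE, adjusted p = 0.00050). TPP VIT_12s0028g01670 had 0.836 to 1.47 FPKM in Aki and 2.55 to 5.02 FPKM in BL (-1.72 ± 0.27 SE, adjusted p = 0.0017). The groups did not overlap for any of the 3 genes, and the BF and NTC means of all 3 were nearer to Aki than to BL. Without Aki_R4 the second TPS gene was just under the fold threshold (-1.39), and with 1 FPKM added the TPP gene was (-1.22).

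Xyloglucan endotransglucosylase/hydrolases (XTH) cut and rejoin the xyloglucans of the cell wall. Of 3 XTH genes 2 were lower in Aki, against 1.01% of all tested genes. The study picked these genes too for a rise in BL against NTC. The NTC mean was nearer to Aki than to BL for all 3, and the BF mean for 2 of them. VIT_05s0062g00250, the most abundant, had 68.7, 86.7, 90.0 and 69.1 FPKM in Aki, against 358, 265, 299.5 and 202 FPKM in BL (-1.82 ± 0.17 SE, adjusted p = 9.7e-05). BF had 67.3 to 158 FPKM and NTC 59.5 to 144 FPKM, so that BL alone stood high among the 4 groups. VIT_11s0052g01280 was weak, with at most 0.357 FPKM in Aki and 0.477 to 1.94 FPKM in BL (-1.94 ± 0.44 SE, adjusted p = 0.012). In this gene BF, at 1.01 to 1.69 FPKM, was nearer to BL. VIT_01s0026g00200 had 3.58 to 4.98 FPKM in Aki and 10.4 to 12.4 FPKM in BL (-1.396 ± 0.14 SE, adjusted p = 0.00014). It lay just outside the fold threshold, and passed it without Aki_R3 (-1.46), Aki_R4 (-1.48), BL_R3 or BL_R4 (-1.43 each).

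Other stress genes were lower in Aki than in BL as well. The catalase VIT_00s0698g00010, which breaks down hydrogen peroxide, had 51.1, 58.4, 83.9 and 34.2 FPKM in Aki, against 175, 132, 254 and 186 FPKM in BL (-1.75 ± 0.27 SE, adjusted p = 0.0027). The cold induced gene VIT_04s0079g00810 had 2.76, 5.71, 12.7 and 9.27 FPKM in Aki, against 44.2, 24.2, 50.7 and 54.6 FPKM in BL (-2.64 ± 0.44 SE, adjusted p = 0.0038). The groups were apart in both, although Aki_R1 and Aki_R3 differed several times over for the cold induced gene. YSL1 (VIT_02s0025g02510), a transporter of metals bound to nicotianamine, had 0.726 to 1.14 FPKM in Aki and 1.92 to 3.63 FPKM in BL (-1.43 ± 0.25 SE, adjusted p = 0.0033). It lost its call without Aki_R2 (-1.31) or BL_R4 (-1.30), and under both rescalings of the libraries (-1.39 and -1.35). VIT_09s0002g03340, of unknown function, had 0.262, 0.770, 5.30 and 2.83 FPKM in Aki, against 20.8, 4.76, 34.8 and 32.0 FPKM in BL (-3.62 ± 0.89 SE, adjusted p = 0.022). Its groups overlapped, and it lost its call without Aki_R2 (adjusted p = 0.066), BL_R3 (0.058) or BL_R4 (0.062), and without both Aki_R1 and BL_R1 (0.081).

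Of 2 small heat shock protein genes tested neither passed both thresholds, although VIT_00s0992g00020 had 17.9 to 24.0 FPKM in Aki and 39.4 to 48.6 FPKM in BL (-1.04 ± 0.11 SE, adjusted p = 0.00017). The heat shock factor HSFC1 (VIT_11s0016g03940) was likewise past the adjusted p alone (-0.55 ± 0.14 SE, adjusted p = 0.017).

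**Figure D4:**
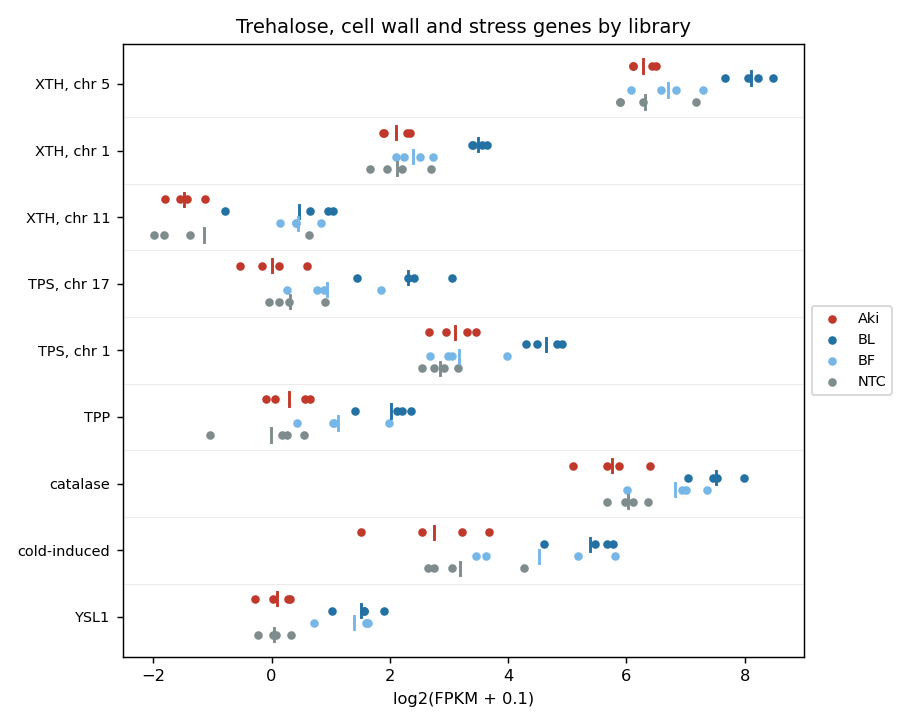
Log2(FPKM + 0.1) of 3 XTH, 2 TPS, 1 TPP, catalase, cold induced and YSL1 genes in the 4 libraries each of Aki, BL, BF and NTC (points, with the group mean as a short bar). Aki libraries lie below BL libraries for all 9 genes, and for the TPS gene on chromosome 1 BF and NTC lie near Aki.

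Of 6 homeobox and bZIP genes, grouped after their values were seen, 3 were higher in Aki, where 1.53% of all tested genes were. The study picked all 6 for a fall in BL against NTC, so the count is no independent evidence. HY5 is a bZIP protein that promotes light responses in Arabidopsis. VIT_04s0008g05210, an HY5 gene, had 35.5, 83.5, 48.4 and 66.1 FPKM in Aki, against 12.3, 30.4, 14.9 and 10.6 FPKM in BL (1.83 ± 0.35 SE, adjusted p = 0.0074). The other HY5 gene, VIT_05s0020g01090, had 21.4 to 25.7 FPKM in Aki and 7.65 to 12.4 FPKM in BL (1.19 ± 0.16 SE, adjusted p = 0.00064), which is past the adjusted p only. HB7 (VIT_15s0048g02870), a homeobox-leucine zipper protein, had 9.06, 15.9, 16.0 and 10.97 FPKM in Aki, against 3.20, 1.67, 4.22 and 2.24 FPKM in BL (2.20 ± 0.29 SE, adjusted p = 0.00071). HB1 (VIT_01s0026g01550) had 6.36 to 13.3 FPKM in Aki and 2.39 to 5.59 FPKM in BL (1.53 ± 0.33 SE, adjusted p = 0.011), and fell under the fold threshold without Aki_R2 (1.35) or Aki_R3 (1.36). BZIP6 (VIT_00s0541g00020) and LMI1 (VIT_08s0007g04200) completed the 6 genes, and the Aki libraries lay above the BL libraries for all 6, as they did for 11.1% of all tested genes. LMI1 passed without Aki_R4 (1.55) or BL_R3 (1.45), and BZIP6 without BL_R3 (1.45). NTC was nearer to Aki for each of the 6 genes and BF for 0. Of other described genes related to light, the constans-like COL2 (VIT_14s0083g00640) passed the adjusted p only (1.08 ± 0.20 SE, adjusted p = 0.0047), and STH2 (VIT_03s0038g00340) gave 0.15 ± 0.23 SE (adjusted p = 0.70).

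IAA31 (VIT_05s0020g01070), a protein of auxin signalling, had 8.36, 4.55, 2.91 and 5.87 FPKM in Aki, against 1.02, 2.11, 1.84 and 0.461 FPKM in BL (2.01 ± 0.45 SE, adjusted p = 0.012). Without both Aki_R1 and BL_R1 it gave 1.71 with an adjusted p of 0.068. VIT_13s0067g02560, of unknown function, was the most abundant of the described genes that were higher in Aki, with 561, 906, 493 and 623 FPKM in Aki, against 73.6, 127, 73.8 and 63.8 FPKM in BL (2.95 ± 0.24 SE, adjusted p = 6.7e-05). NTC, at 550 to 931 FPKM, was in the range of Aki, and BF, at 62.2 to 115 FPKM, in that of BL.

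Histone genes were higher in Aki, with 4 of 6 past both thresholds and all 6 past the adjusted p, against 1.53% and 9.25% of all tested genes. The study picked all 6 for a fall in BL against NTC, so these counts are no independent evidence of a direction. Core histones such as H4 are made mainly when DNA is copied, while H1 binds the linker between nucleosomes. H4 VIT_13s0019g00780 had 172, 139, 86.7 and 118 FPKM in Aki, against 42.5, 26.1, 26.1 and 29.0 FPKM in BL (2.04 ± 0.22 SE, adjusted p = 0.00031). H4 VIT_06s0004g04370 had 123 to 220 FPKM in Aki and 40.1 to 63.1 FPKM in BL (1.74 ± 0.19 SE), and H4 VIT_13s0019g00800 24.0 to 64.1 FPKM and 9.65 to 15.7 FPKM (1.67 ± 0.27 SE). The groups did not overlap for any of them. Nearly identical H4 copies share sequence, so the split of fragments between them is uncertain. Among the H1 genes VIT_07s0005g01060 passed with 1.41 ± 0.35 SE (adjusted p = 0.021), and VIT_14s0081g00500 and VIT_07s0141g00730 gave 1.09 and 1.02. The call of VIT_07s0005g01060 was lost without Aki_R1 (1.13), Aki_R2 (adjusted p = 0.060) or BL_R2 (1.14), and without both Aki_R1 and BL_R1 (1.30).

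The cyclins, which drive the steps of the cell cycle, were mostly not DEGs. Of 9 tested, 1 was higher in Aki and 0 were lower, with a median log2 fold change of 0.83, where 1.53% of all tested genes were higher. Some of these cyclins were picked by the study for a fall in Aki and the others for a fall in BL, against NTC. The histone genes were all picked on BL, so the contrast between histones and cyclins is no independent evidence. Averaged over the 9 cyclins, log2(FPKM + 0.1) was 1.66 to 3.76 in NTC, 1.41 to 3.41 in Aki and 1.35 to 1.89 in BL. CYCA1 (VIT_18s0001g02060) had 7.73, 3.91, 2.17 and 4.78 FPKM in Aki, against 1.52, 1.33, 0.928 and 1.78 FPKM in BL (1.57 ± 0.35 SE, adjusted p = 0.012), and lost its call without Aki_R1 (1.28) and without both Aki_R1 and BL_R1 (1.33). The B-type cyclin VIT_08s0040g00930 had 13.4, 6.59, 4.01 and 6.68 FPKM in Aki, against 4.04, 3.64, 3.22 and 3.38 FPKM in BL (0.95 ± 0.30 SE, adjusted p = 0.048). In both, Aki_R1 was the highest Aki library and Aki_R3 the lowest, the same libraries that lay farthest apart on PC2. The D-type cyclin VIT_18s0001g09920 had 35.7, 13.3, 7.99 and 16.1 FPKM in Aki, against 25.7, 19.3, 15.5 and 21.4 FPKM in BL (-0.36 ± 0.39 SE, adjusted p = 0.56), so the Aki libraries spread on both sides of BL. The cyclin CYC1b (VIT_13s0067g01420) had 3.76, 2.30, 0.694 and 1.16 FPKM in Aki, against 0.709, 0.692, 0.452 and 0.852 FPKM in BL (1.19 ± 0.45 SE, adjusted p = 0.090). Without Aki_R3 it passed both thresholds (1.57, adjusted p = 0.021), as the second cyclin to do so. The part of this spread between Aki libraries in the result was not tested.

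Of 3 other replication and checkpoint genes tested, WEE1 (VIT_07s0104g01740), a kinase that holds back division, was higher with 0.714 to 1.39 FPKM in Aki and 0.163 to 0.394 FPKM in BL (1.46 ± 0.36 SE, adjusted p = 0.018). It lost its call without Aki_R1 (1.28), Aki_R2 (adjusted p = 0.057) or BL_R2 (1.29), and without both Aki_R1 and BL_R1 (adjusted p = 0.058). The origin recognition complex gene VIT_01s0011g04400 gave 1.28 ± 0.36 SE (adjusted p = 0.031), and exceeded the fold threshold without Aki_R3 (1.42), BL_R1 (1.48) or BL_R4 (1.401). The third, the helicase RECQ (VIT_01s0010g02590), gave 0.93 ± 0.38 SE (adjusted p = 0.11).

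Among the remaining described genes, MSH3 (VIT_00s0388g00030), a DNA mismatch repair protein, gave -1.30 ± 0.43 SE (adjusted p = 0.057), and passed both thresholds without BL_R3 (-1.53) and with voom on rebuilt fragments (-1.50). The annexin ANN4 (VIT_00s0131g00080) gave -1.21 ± 0.46 SE (adjusted p = 0.090), and passed without both Aki_R1 and BL_R1 (-1.70). LDOX (VIT_13s0067g01020), an enzyme of anthocyanin synthesis, gave -0.84 ± 0.35 SE (adjusted p = 0.11), and NST1 (VIT_02s0025g02710), a factor of secondary wall thickening, 0.71 ± 0.33 SE (adjusted p = 0.16). Of 3 ankyrin repeat genes 2 were tested, and neither passed.

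**Figure D5:**
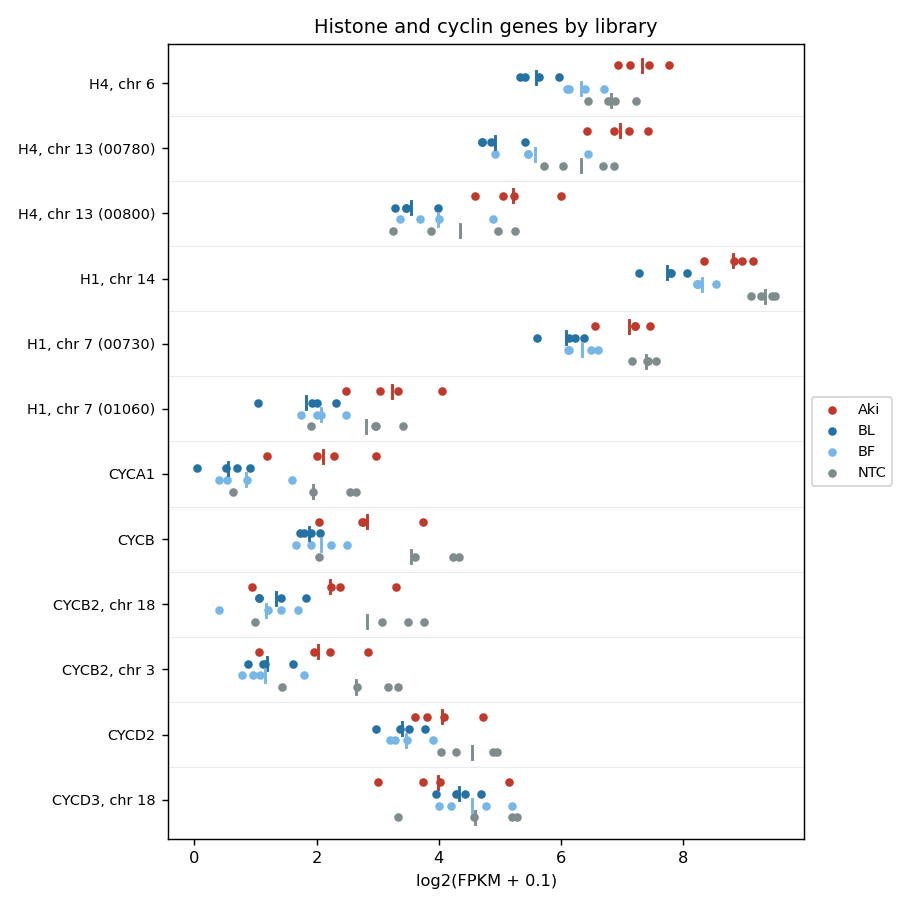
Log2(FPKM + 0.1) of 3 H4, 3 H1 and 6 cyclin genes in the 4 libraries each of Aki, BL, BF and NTC (points, with the group mean as a short bar). The Aki and BL libraries are apart for the 6 histone genes and CYCA1, and overlap for the other 5 cyclins.

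Most DEGs carry no description, since 0 of the identifiers were found in the gene table of the RefSeq annotation and the files do not pair identifiers with names. Among them the largest rises were those of neighbouring gene models on scaffold 0049 of chromosome 5. VIT_05s0049g00740 had 268, 299, 222 and 253 FPKM in Aki, against 5.65, 5.44, 2.78 and 16.8 FPKM in BL (5.37 ± 0.44 SE, adjusted p = 9.0e-05), the largest fitted fold change of all tested genes with 0.1 FPKM added. VIT_05s0049g00730 had 39.6, 38.2, 35.7 and 24.8 FPKM in Aki, against 0.996, 1.13, 0.369 and 2.22 FPKM in BL (4.96 ± 0.41 SE, adjusted p = 8.3e-05). They belong to a run of 9 DEGs with no other tested gene between them, all higher in Aki, with log2 fold changes of 2.22 to 5.37. NTC means in the run were at most 46.9 FPKM and BF means at most 13.7 FPKM.

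Runs of at least 3 adjacent DEGs in the same direction numbered 6 and held 26 of the 500 DEGs, ordered by the numbers in the identifiers. The run of 4 around A8 on chromosome 4 had log2 fold changes of 2.40 to 3.92. A run of 3 on scaffold 0090 of chromosome 19 held the genes with the largest gain in FPKM, with means of 4392 ± 1718 and 3218 ± 694 FPKM in Aki and 368 ± 58.7 and 359 ± 41.0 FPKM in BL (SD, n = 4 each). The NTC means of this pair were 1339 and 761 FPKM. On the lower side, a run of 4 weak genes on scaffold 0100 of chromosome 16 had means of at most 0.225 FPKM in Aki and 0.556 to 1.38 FPKM in BL. Neighbours may be near-identical copies, between which uniquely mapping fragments are divided with uncertainty.

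Among the lower DEGs without description, VIT_14s0068g01790 had 1.68, 3.33, 8.31 and 0.842 FPKM in Aki, against 31.0, 12.7, 35.2 and 25.7 FPKM in BL (-3.22 ± 0.61 SE, adjusted p = 0.0070). VIT_00s0586g00030 had 0.951, 1.84, 2.75 and 0.832 FPKM in Aki, against 17.1, 3.49, 17.6 and 11.8 FPKM in BL (-2.81 ± 0.55 SE, adjusted p = 0.0077), and an adjusted p of 0.052 without both Aki_R1 and BL_R1. The groups were apart in both, and BF and NTC were below the BL libraries other than BL_R2. After B12, the largest falls in mean FPKM were those of a gene on chromosome 4 with 146 ± 55.5 FPKM in Aki and 409 ± 134 FPKM in BL, and a gene on chromosome 12 with 144 ± 51.1 and 389 ± 70.4 FPKM (SD, n = 4 each).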

How the data were processed

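Per the labels and the study's methods, the authors trimmed reads with BBDuk, aligned them with STAR 2.6 to PN40024 (12X), and counted uniquely mapping fragments with featureCounts 1.6.1. The deposited FPKM come from edgeR. Gene positions were taken from identifiers only. Whole fragments could be rebuilt for 25310 of 25310 genes above 0 (tolerance 0.001) and served as an alternative and for counting intervals.

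log2(FPKM + 0.1) of the 8 libraries was fitted with limma 3.58.1 in R 4.3.3 (intensity trend, robust moderation, no block), with Python 3.11.15, SciPy 1.17.1 and matplotlib 3.10.9 for the rest. On simulated data for Aki over BL (19633 genes), 98 of 100 changes of 2 and 99 of 100 of 3 on the log2 scale were recovered, with 2 false calls. The changed genes were drawn only from those averaging 5 FPKM or more, and all genes were given the same fixed dispersion between replicates. These figures thus do not cover weakly expressed genes, where DEGs were most frequent, or genes that vary more between replicates.

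The rule for named genes took all genes the study describes (those past no threshold are partly given as counts), the 2 largest undescribed rises and falls whose groups did not overlap at 5 FPKM or more, and the largest FPKM differences. The members and lists were chosen with earlier results of these data known, and role groups after seeing values. Of 38 keyword lists, none could be applied beyond the 102 described genes, of which 8 failed the filter. Promoters were not analysed. Alternatives changed libraries, pseudocount, filter, scaling, moderation, block and test.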

Additional observations from a re-analysis of the deposited data

Results flagged for a closer look

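In the named genes and the PC scores, 200 groups of 4 libraries were checked for a library far from the other 3, measured as the gap to the nearest library over the range of the group (limit 0.829). Chance alone gives about 1 in 20, and 8 groups were past the limit. In Aki they were A7 (VIT_00s0372g00040), high in Aki_R2 at 13.8 FPKM against 7.75 to 8.38 (ratio 0.865), B1 (VIT_16s0022g00860), high in Aki_R3 at 1.007 FPKM against 0.084 to 0.148 (0.835), the ferritin VIT_08s0058g00440, low in Aki_R3 at 10.2 FPKM against 35.7 to 42.2 (0.881), BZIP6 (VIT_00s0541g00020), high in Aki_R3 at 2.01 FPKM against 1.20 to 1.28 (0.886), and the zinc knuckle gene VIT_01s0010g01670, high in Aki_R1 at 4.50 FPKM against 1.16 to 1.41 (0.861). In BL they were B12 (VIT_10s0116g00530), high in BL_R4 at 1440 FPKM against 1200 to 1218 (0.917), JAZ8 (VIT_10s0003g03790), high in BL_R2 at 1.18 FPKM against 0.257 to 0.284 (0.943), and VIT_01s0011g03440, low in BL_R3 at 50.03 FPKM against 74.6 to 79.5 (0.862).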

How the results depend on the processing

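The counts of 301 higher and 199 lower genes stayed within 1.5 times under all alternatives other than a pseudocount of 1 FPKM, which gave 152 and 79 genes, and the adjusted p with no fold threshold, which gave 1818 and 2096. Leaving out each library in turn gave 245 to 314 higher and 145 to 254 lower genes, and the rebuilt fragments with voom gave 331 and 196. PC1 parted Aki from BL in each alternative run for the PCA, with 49.91% of the variance at a pseudocount of 1 FPKM, 48.25% over the 6 retained libraries, 41.1% after quantile normalization, and 41.12 to 45.71% without each library in turn. Of the 55 named DEGs, 37 kept their call in every alternative and 18 lost it in at least 1, with 0 reversed. Of the named genes that were not DEGs, 8 passed in at least 1. The pseudocount of 1 FPKM also lowered the defence and stress genes that were higher in Aki to 3, and ended the calls of B8, B14, TPP, YSL1, CYCA1, WEE1, HB1, 1 XTH gene and 1 H1 gene. With the replicate number as a block, 306 genes were higher and 205 lower, with no change to the named DEGs. Deviations of same-numbered Aki and BL libraries correlated at 0.11, -0.03, 0.20 and 0.14 for replicates 1 to 4, so that replicate 2 was not above 0.1 and the numbers were not taken as pairs. The block over the retained libraries, chosen after seeing the data, gave 274 and 191, and ended the calls of B4 (adjusted p = 0.055) and VIT_14s0068g01790 (0.064), which held in the other alternatives. Depth limits weakly expressed genes most, since 3 fragments on a gene of 1 kb equal up to 0.271 FPKM.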
